A study of Mus musculus with 35 samples.

Results

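Hemogenic endothelium (HE) was compared with endothelial cells (EC) of the same embryonic day, E10.5, by the read counts of ATAC-seq peaks in 4 HE libraries and 4 EC libraries. The comparison takes 8 of the 35 libraries of the series, and all 76018 peaks of the deposited count table, of which 46668 passed the filter on low counts and were tested. The E10.5 HE libraries were made from cells labelled hemogenic endothelium and the E10.5 EC libraries from cells labelled endothelial cells. Both came from tissue labelled AGM+VU, which in this field stands for the aorta-gonad-mesonephros region with the vitelline and umbilical arteries, and both carry the genotype 23GFP transgenic, as do all other groups of the series. The name 23GFP is used in this field for a reporter of the +23 enhancer of Runx1. Each library was a pool of 1500 sorted cells amplified with 13 PCR cycles. The sources used here do not name the sort markers. The labels do not say whether pools were of separate litters. Replicate number entered the fit as a block, so p-values measure how the HE minus EC difference spreads between replicate numbers. That spread may be technical. Further groups used are HE and EC of E9.5 and of E8.5 (4 libraries each, tissue labelled PAS+VU of E8.5 for both days), pro-HSC/HPC of E9.5 (3 libraries), and pre-HSC I and pre-HSC II of E10.5 (4 libraries each).

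In the endothelial-to-hematopoietic transition, a subset of arterial endothelial cells becomes hemogenic, switches on the transcription factor Runx1 and rounds up into blood progenitors and precursors of hematopoietic stem cells. Chromatin that is open in a cell lets the Tn5 transposase of ATAC-seq cut and tag the DNA, so a region with more reads is more accessible in those cells. Open regions include promoters and enhancers, the elements that transcription factors bind to switch genes on and off. Peak positions below are of build mm9, written as in the deposited table. The sources used here do not say whether its first base is numbered 0 or 1. No mm9 genome or annotation was used here, so peaks carry no gene names or sequences, and the cell labels were not checked against marker genes.

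The depth behind the values differed between libraries. Total counts in peaks were 1215458, 3115691, 3690523 and 1101787 in HE replicates 1 to 4, and 2117133, 5371760, 4283412 and 3620001 in EC replicates 1 to 4. A count of 3 then stood for 0.813 to 2.72 CPM (counts scaled to library size) in an HE library and for 0.558 to 1.42 CPM in an EC library. HE replicates 1 and 4 were the shallowest of the 8 libraries and also stood apart from HE replicates 2 and 3 in level at peaks that were lower in HE, as given below. Even numbers were in excess and made up 57.4% to 71.6% of a library's counts between 10 and 49.

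At E10.5, 2467 peaks (5.29% of those tested) differed between HE and EC at a Benjamini-Hochberg adjusted p of 0.05 in edgeR's quasi-likelihood test. Of these, 729 (1.56%) were higher in HE and are called opened here, and 1738 (3.72%) were lower in HE and are called closed. Thus 70.4% of the called peaks were closed, while the median log2 fold change of all tested peaks was 0.01. Opened peaks had a median level of 19.0 CPM in HE and 5.79 CPM in EC, and closed peaks 11.9 CPM in HE and 30.9 CPM in EC, against 8.43 CPM in HE and 8.46 CPM in EC over all tested peaks. The number of calls depended on the block, since 137 peaks (87 opened and 50 closed) were called without it. Closed peaks were then 36.5% of the calls, so opened peaks were the majority in that fit of the 8 libraries, whereas all groups in 1 fit without the block gave 68.6% closed. It also depended on the deep replicates, with 819 calls when replicate 2 was left out and 954 when replicate 3 was left out.

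**Figure D1:**
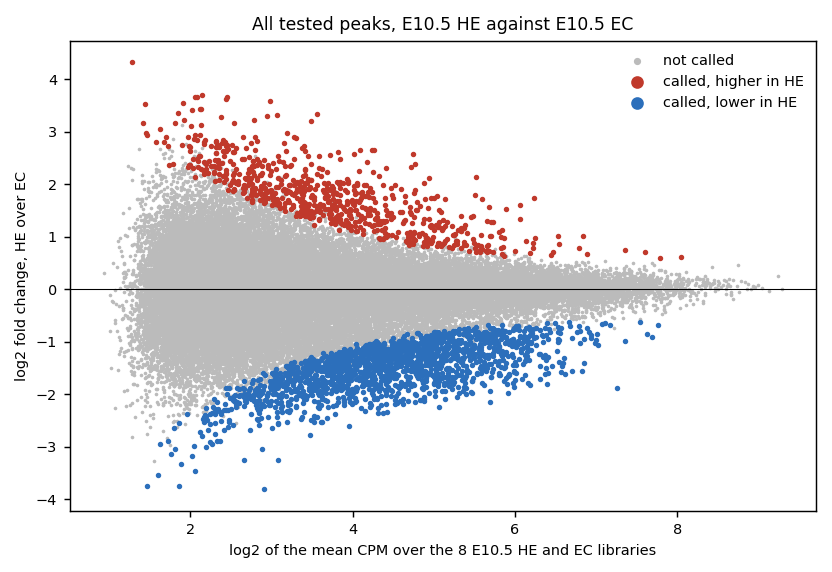
The log2 fold change of HE over EC (vertical) against the log2 of the mean CPM over the 8 E10.5 libraries (horizontal), with 1 point per tested peak. The 729 opened peaks lie above the zero line and the 1738 closed peaks below it, and the closed peaks are concentrated at higher levels than the opened ones.

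Opened peaks had the larger median change. Their log2 fold changes ran between 0.60 and 4.32 with a median of 1.74, and 238 of them (32.6%) differed at least 4-fold, 407 (55.8%) between 2-fold and 4-fold and 84 (11.5%) less than 2-fold. Closed peaks ran between -3.81 and -0.62 with a median of -1.45, and 235 of them (13.5%) differed at least 4-fold, 1289 (74.2%) between 2-fold and 4-fold and 214 (12.3%) less than 2-fold. The difference in size between the lists was not tested. Opened peaks also had the lower levels, as given above, and the part of level in this difference was not tested.

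Replicates gave the same direction for nearly all called peaks. The HE minus EC difference in CPM had 1 sign in all 4 replicate numbers at 688 of the opened peaks (94.4%) and 1719 of the closed peaks (98.9%), against 26.7% of all tested peaks. The 4 HE and 4 EC libraries did not overlap in CPM at 511 opened peaks (70.1%), where 3.37% of all tested peaks had every HE library above every EC library. The same held for 1018 closed peaks (58.6%), where 4.89% of all tested peaks had every HE library below every EC library. These counts use the values that called the peaks and describe them.

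The 2 directions were carried differently by the 4 replicates. At opened peaks the library medians were 20, 19.5, 19.1 and 15.9 CPM in HE replicates 1 to 4, and 6.72, 4.77, 4.83 and 6.07 CPM in EC replicates 1 to 4. At closed peaks they were 5.00, 16.4, 16.6 and 7.08 CPM in HE, and 23.0, 35.7, 35.9 and 29.5 CPM in EC. Closed peaks were thus lowest in HE replicates 1 and 4, and the EC libraries of these numbers were lower than EC replicates 2 and 3 as well. Over all tested peaks the medians lay between 7.96 and 8.85 CPM in HE libraries and between 7.78 and 9.12 CPM in EC libraries. The median difference per replicate number on the log2 CPM scale was 1.36, 1.83, 1.68 and 1.28 at opened peaks and -1.91, -1.10, -1.11 and -1.81 at closed peaks. HE replicates 1 and 4 were also the shallow libraries, and the part of depth in this split was not tested.

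Fits to replicates 2 and 3 and to replicates 1 and 4 give the comparison without and with the shallow HE libraries. Other pairs were not fitted. Replicates 2 and 3 alone called 4935 peaks (9.92% of the 49744 tested), 2129 opened (4.28%) and 2806 closed (5.64%). Replicates 1 and 4 alone called 188 peaks (0.546% of the 34415 tested), 6 opened (0.0174%) and 182 closed (0.529%). A fit to a pair leaves fewer residual degrees of freedom than the 3 of the main fit, alike for both pairs. These numbers of calls do not measure the quality of the libraries, and the cause of their difference was not tested. Each pair can be read in the libraries of the other. Of the 1991 peaks called opened in replicates 2 and 3 and tested in all 8 libraries, 54.9% were higher in HE in both replicates 1 and 4, against 24.9% of all tested peaks, with median log2 CPM differences of 0.60 and 0.40. Of the 2739 peaks called closed in replicates 2 and 3, 82.1% were lower in HE in both other replicates, against 31.0% of all tested peaks, with medians of -1.45 and -1.26. Of the 182 peaks called closed in replicates 1 and 4, 98.9% were lower in HE in both replicates 2 and 3, against 30.8%. Of the 6 peaks called opened in replicates 1 and 4, 5 (83.3%) were higher in HE in both replicates 2 and 3, against 33.0% of all tested peaks. Differences between these shares were not tested.

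The opened peak with the smallest p was chr11:24126489-24127811, 1322 bp wide. Its level was 86.6, 134, 146 and 96.4 CPM in HE replicates 1 to 4, and 33.6, 34.7, 38.6 and 31.5 CPM in EC replicates 1 to 4. Every HE library was above every EC library, and the log2 fold change was 1.73 (SE 0.19, adjusted p = 0.000393). The second, chr11:110915264-110916066, had 56.6, 46.8, 48.7 and 31.0 CPM in HE and 10.6, 6.48, 10.2 and 7.80 CPM in EC. Its log2 fold change was 2.39 (SE 0.26, adjusted p = 0.000393), and the lowest HE library, replicate 4, was still well above the highest EC library. Peak chr1:56276418-56276984 was narrow, at 566 bp, and low in EC. It had 47.5, 29.7, 27.1 and 28.3 CPM in HE, and 7.20, 4.58, 4.02 and 5.20 CPM in EC, or 2.65 on the log2 scale (SE 0.30, adjusted p = 0.000516). HE replicate 1 stood above the other 3 HE libraries, which lay close together. Peak chr6:141002272-141003297 had 60, 93.5, 101 and 44.2 CPM in HE, and 13.4, 11.4, 24.4 and 19.4 CPM in EC. The HE libraries fell into the deep pair at high levels and the shallow pair at lower ones, all above EC, and the log2 fold change was 2.13 (SE 0.26, adjusted p = 0.000516).

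The other 8 opened peaks named by the rule, on chromosomes 2, 6, 10, 11, 12, 13 and 15, had log2 fold changes between 1.57 and 3.33. The smallest of these was at chr13:84710512-84711673, with 76.2 ± 20.8 CPM in HE and 25.9 ± 7.14 CPM in EC (SD, n = 4 each). At the other end stood chr12:104836562-104837182, with 21.2 ± 11.6 CPM in HE and 2.34 ± 1.92 CPM in EC (SD, n = 4 each). In all 12 named opened peaks no EC library reached the level of any HE library, as at 70.1% of all opened peaks. The rule chose these peaks by p, size and sign in the same libraries, so this only describes them.

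Among closed peaks, chr5:149976189-149977107 came first. It had 5.00, 24.9, 18.8 and 13.3 CPM in HE replicates 1 to 4, and 40.3, 77.8, 77.2 and 55.8 CPM in EC replicates 1 to 4. All HE libraries were below all EC libraries, and the log2 fold change came to -2.05 (SE 0.24, adjusted p = 0.000516). Next, chr11:89839106-89840488 had 13.3, 23.2, 24.8 and 10.6 CPM in HE, and 43.2, 81.0, 80.5 and 60.1 CPM in EC, or -1.88 on the log2 scale (SE 0.22, adjusted p = 0.000516). In each group replicates 2 and 3 were higher than replicates 1 and 4, and the groups did not overlap. Peak chr11:110426982-110428254 had 3.33, 14.7, 20.4 and 8.85 CPM in HE, and 39.4, 68.8, 64.9 and 46.2 CPM in EC. It had the steepest fall of the first 4, at -2.24 on the log2 scale (SE 0.27, adjusted p = 0.000516), and the same split between replicates. Peak chr13:111473432-111474214 had 5.83, 24.2, 36.6 and 7.08 CPM in HE, and 28.8, 72.1, 125 and 52.6 CPM in EC. Here the groups overlapped, since HE replicate 3 exceeded EC replicate 1, but within each replicate number HE was the lower. Its log2 fold change was -1.96 (SE 0.24, adjusted p = 0.000615), and the call was lost without the replicate block.

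The other 8 closed peaks named by the rule, on chromosomes 2, 5, 8, 9, 12, 13 and 15, had log2 fold changes between -2.61 and -1.56. The highest level among them was at chr15:6209495-6211372, with 59.5 ± 28.6 CPM in HE and 168 ± 33.7 CPM in EC (SD, n = 4 each). The peak closest to background was chr12:95491072-95491667, at 4.31 ± 1.82 CPM in HE and 26.6 ± 5.37 CPM in EC (SD, n = 4 each), where HE replicate 4 held 2 counts. The calls of chr13:111473432-111474214, chr15:6209495-6211372, chr2:32493059-32494004 and chr5:151859229-151860250 were lost without the block. With replicates 1 and 4 alone, whose HE libraries were shallow, 16 of the 24 named peaks were not called. None of the 24 changed direction in any alternative run.

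**Figure D2:**
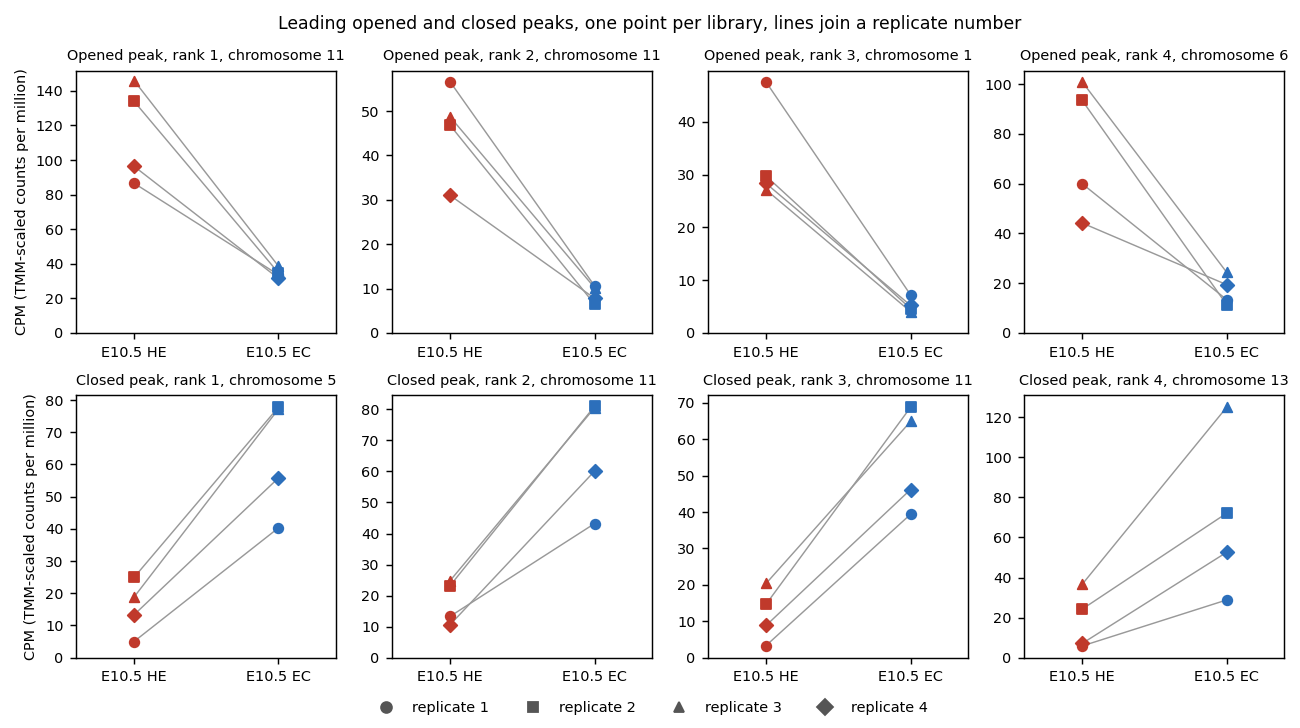
CPM in each E10.5 library (vertical, linear from 0) for the 4 leading opened peaks and the 4 leading closed peaks, with HE on the left and EC on the right of each panel and lines joining libraries of the same replicate number. In the opened panels every line descends to EC, for example to between 31.5 and 38.6 CPM in the first, and in the closed panels every line climbs to EC. The rule that named these peaks required the same direction in all 4 replicate numbers.

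Closed peaks were concentrated among the more accessible peaks. The tested peaks were split by their mean level over the 8 libraries into 4 classes of 11667. In the highest class (21.6 to 628 CPM), 7.36% closed and 1.58% opened, and in the next (8.41 to 21.6 CPM) 6.04% closed and 2.74% opened. In the lowest class (1.91 to 4.91 CPM) 0.283% closed and 0.523% opened. Closed peaks were thus 82.4% of the calls in the highest class and 35.1% in the lowest. The power to call a peak rises with its counts, HE libraries were on the whole shallower than EC libraries, and the part of either in these shares was not tested. Peaks of 1000 to under 2000 bp closed in 5.56% and opened in 1.5% of cases, peaks of 2000 bp or more closed in 3.44% and opened in 1.27%, and peaks under 250 bp closed in 0.761% and opened in 1.07%. The median width was 747 bp for opened peaks, 895 bp for closed peaks and 697 bp for all tested peaks. No autosome or chromosome X stood without calls in either direction, with 1.07% (chromosome 5) to 2.29% (chromosome 3) of tested peaks opened and 2.40% (chromosome 17) to 4.51% (chromosome 5) closed. On chromosome X 17 peaks opened and 37 closed, and none of the 6 tested peaks on chromosome Y was called.

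Called peaks were joined into a locus where neighbours of the same direction lay within 50 kb of each other. Opened peaks formed 655 loci, of which 592 held a single peak and 63 held 2 or more, so 18.8% of opened peaks shared a locus with another. Closed peaks formed 1338 loci, of which 1068 held a single peak, 270 held 2 or more and 32 held 4 or more, and 38.6% of closed peaks shared a locus. Another opened peak lay within 50 kb of 18.2% of the opened peaks, against 5.02% of all tested peaks. Another closed peak lay within 50 kb of 38.1% of the closed peaks, against 15.4% of all tested peaks. Across directions, a closed peak lay within 50 kb of 9.47% of the opened peaks, against the same 15.4% of all tested peaks. An opened peak lay within 50 kb of 5.06% of the closed peaks, against 5.02% of all tested peaks. These shares are descriptions with no test. The number of loci with 2 or more peaks was 333 here, 2 without the replicate block, 79 without replicate 2 and 97 without replicate 3.

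Among opened loci with all tested peaks called, the one with most peaks was chr1:4592134-4644922, where all 4 peaks over 52.8 kb were opened, with log2 fold changes between 1.37 and 1.95. Its last peak, chr1:4643656-4644922, had 18.3, 17.1, 17.8 and 17.7 CPM in HE and 4.80, 5.72, 3.22 and 4.62 CPM in EC, so HE libraries of very different depth gave almost the same level there (adjusted p = 0.0049). Its first peak, chr1:4592134-4593234, had 25.8, 41.7, 70.0 and 19.5 CPM in HE and 20.6, 12.2, 11.8 and 14.4 CPM in EC. At that end the groups overlapped, and the shallow HE libraries were close to EC (adjusted p = 0.0186). The other opened locus of 4 calls, chr19:43634662-43687514, held 10 tested peaks, and 3 of its 6 uncalled peaks were higher in HE. At chr11:89955144-89979851 all 3 tested peaks opened, led by chr11:89955144-89956196 with 45.0, 63.5, 64.3 and 30.1 CPM in HE and 22.1, 15.4, 12.3 and 10.4 CPM in EC. This opened locus lies 115 kb from the closed peak chr11:89839106-89840488 described above, a pair picked out after the values were seen. At chr4:131603937-131633693 all 3 tested peaks also opened, with log2 fold changes between 0.63 and 1.99.

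Among closed loci, chr2:84963061-85018779 had 7 of its 9 tested peaks called over 55.7 kb, and the other 2 were lower in HE as well. The most accessible was chr2:85003169-85004933, with 35.0, 103, 131 and 18.6 CPM in HE and 157, 232, 321 and 226 CPM in EC (log2 fold change -1.88, SE 0.27, adjusted p = 0.000834). No HE library reached any EC library there, and the HE libraries themselves ranged widely. At chr12:17446723-17514773, 6 of 7 tested peaks closed, with log2 fold changes between -2.31 and -1.28, and its peak chr12:17475157-17475778 had no counts in HE replicate 4. At chr13:111324242-111354704, 6 of 7 closed and the remaining peak was also lower in HE. The named closed peak chr13:111473432-111474214 lies 119 kb beyond this locus, a pair noted after the values were seen. The widest region with 7 calls was chr1:167518837-167631994, 113 kb with 29 tested peaks, where 21 of the 22 uncalled peaks were lower in HE. One of its called peaks, chr1:167518837-167520546, had 38.3, 91.5, 93.0 and 10.6 CPM in HE and 58.6, 159, 190 and 139 CPM in EC, and the groups overlapped. Over the 32 closed loci with 4 or more calls, 117 of 143 uncalled peaks (81.8%) were lower in HE and 1 peak was opened. Over the 8 listed opened loci, 10 of 16 uncalled peaks (62.5%) were higher in HE. The median log2 fold change of all tested peaks was 0.01, so over all peaks the directions were close to even. The loci were picked from these data for their calls, and these counts describe them with no test.

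**Figure D3:**
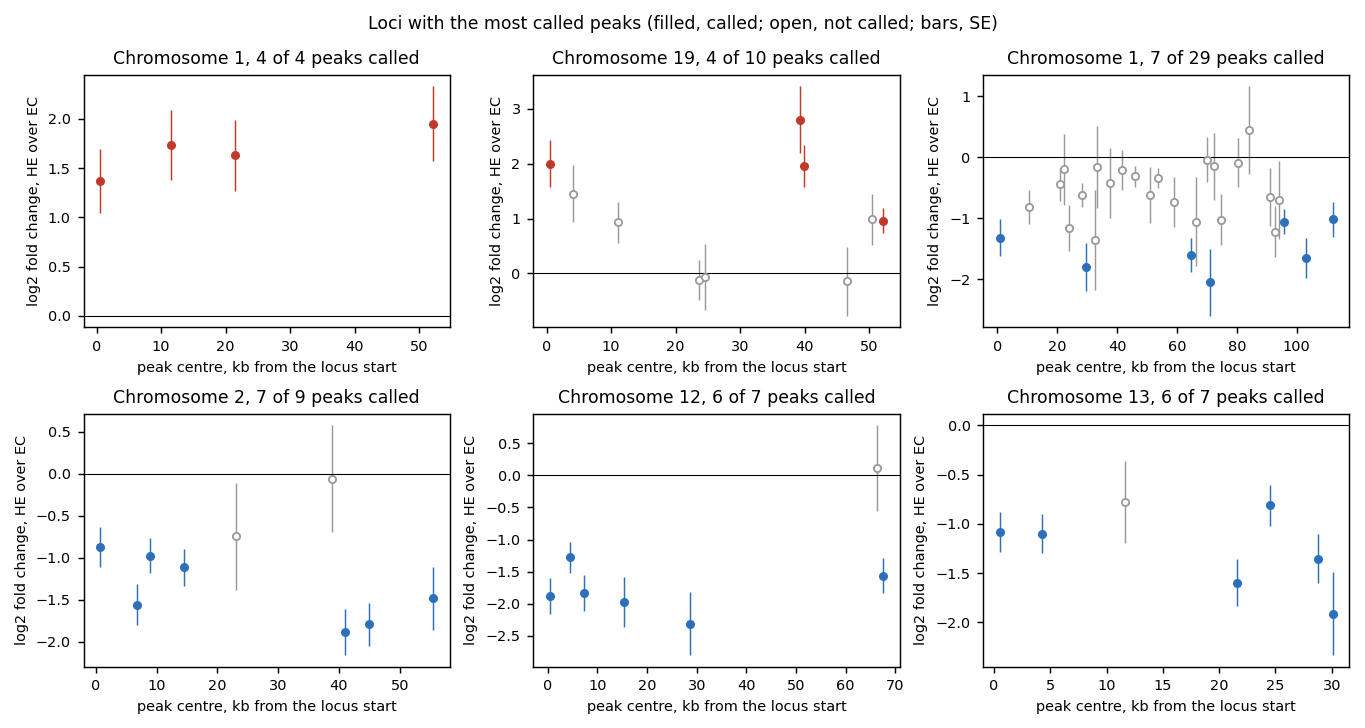
The log2 fold change of HE over EC with its SE (vertical) against the distance of the peak centre in kb from the start of the locus (horizontal) for the 2 opened and 4 closed loci with most called peaks, where filled points are called and open points are not. On chromosome 1 the 4 opened peaks lie between 1.37 and 1.95, and in the closed locus of 29 peaks nearly all uncalled points also lie below zero.

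Opened and closed peaks lay side by side at some places, although the shares with such a neighbour were near or below those of all tested peaks, as given above. At chr10:14179822-14180803, an opened peak, the levels were 15, 33.8, 26.7 and 10.6 CPM in HE and 3.84, 7.25, 3.75 and 7.51 CPM in EC (log2 fold change 1.93, SE 0.40, adjusted p = 0.00677). The closed peak chr10:14183604-14184480, 3.73 kb away, had 8.33, 16.7, 6.05 and 5.31 CPM in HE and 27.9, 33.6, 24.9 and 28.6 CPM in EC (log2 fold change -1.70, SE 0.32, adjusted p = 0.00363). In both peaks the groups did not overlap. The pair was chosen after the values were seen.

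HE and EC of E9.5 are other libraries, none of which entered the E10.5 calls, and the same test was applied to them. At E9.5 7253 peaks were called (13.5% of 53574), 3206 higher in HE (5.98%) and 4047 lower (7.55%). Of the 729 peaks opened at E10.5, 673 were tested at E9.5, their median log2 fold change there was 1.57, and 666 (99.0%) were higher in HE, against 51.7% of all peaks tested that day. In all, 530 were called higher at E9.5, which is 72.7% of the E10.5 list and 16.5% of the E9.5 list, and 1 was called lower. Of the 1738 closed peaks, 1737 were tested, with a median of -0.95, and 1714 (98.7%) were lower in HE, against 48.3% of all. There 1336 were called lower, 76.9% of the E10.5 list and 33.0% of the E9.5 list, and 1 was called higher. Most loci that differed at E10.5 thus differed the same way at E9.5.

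At the leading peaks the log2 fold changes of the 2 days were set side by side. The log2 fold change of chr11:24126489-24127811 was 1.73 at E10.5 (SE 0.19) and 1.83 at E9.5 (SE 0.15). For chr6:141002272-141003297 it was 2.13 at E10.5 (SE 0.26) and 2.56 at E9.5 (SE 0.24), and for chr11:110915264-110916066 2.39 at E10.5 (SE 0.26) and 2.53 at E9.5 (SE 0.34). Among closed peaks, chr11:89839106-89840488 was at -1.88 on E10.5 (SE 0.22) and -1.42 on E9.5 (SE 0.16). All 12 named closed peaks were called lower at E9.5, and 11 of the 12 named opened peaks were called higher, with chr12:104836562-104837182 not tested that day.

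E8.5 gave another picture, above all at closed peaks. At E8.5 3597 peaks were called (8.84% of 40680), 2406 higher in HE (5.91%) and 1191 lower (2.93%). Of the 470 peaks opened at E10.5 that were tested at E8.5, 75.7% were higher in HE, against 50% of all peaks tested that day. Their median log2 fold change was 0.64. Of the 729, 131 were called higher (18.0%, 5.44% of the E8.5 list) and 9 lower. Of the 1612 closed peaks tested, 16.9% were lower in HE at E8.5, against 50% of all. Their median was 0.42, on the opposite side. Of the 1738, 345 (19.9%) were called higher in HE at E8.5 and 6 lower. Peaks not tested at E8.5 count as not called in these shares of the E10.5 lists. Of the closed peaks, 240 (13.8%) were called higher in HE at E8.5 and lower at both E9.5 and E10.5. Of the opened peaks, 125 (17.1%) were called higher in HE on all 3 days. The E10.5 call in each pattern is set by the list, and the share of all tested peaks with either pattern was not computed. These 2 counts therefore only describe the lists. With the shallow E8.5 replicates 1 and 2 left out, 9.49% of the closed peaks were called higher in HE, against 2.38% of all tested peaks, where the fit of all 4 replicates gave 19.9% and 5.91%. Under each of the other 3 scalings the E8.5 median at closed peaks was above 0, between 0.36 and 0.41.

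Among the named peaks, chr5:149976189-149977107 had a log2 fold change of 1.44 at E8.5 (SE 0.26, adjusted p = 0.000863), -1.31 at E9.5 (SE 0.16) and -2.05 at E10.5 (SE 0.24). The same turn was found at chr11:110426982-110428254, with 1.21 at E8.5 (SE 0.16, adjusted p = 1.63e-05), -0.65 at E9.5 (SE 0.14, adjusted p = 0.00127) and -2.24 at E10.5. Also chr15:6209495-6211372 and chr5:151859229-151860250 were called higher in HE at E8.5, at 0.87 and 0.84. The opened peak chr11:24126489-24127811 had the same sign on all 3 days, with 2.08 at E8.5 (SE 0.22). As labelled, tissue and day cannot be told apart between E10.5 and the earlier days.

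**Figure D4:**
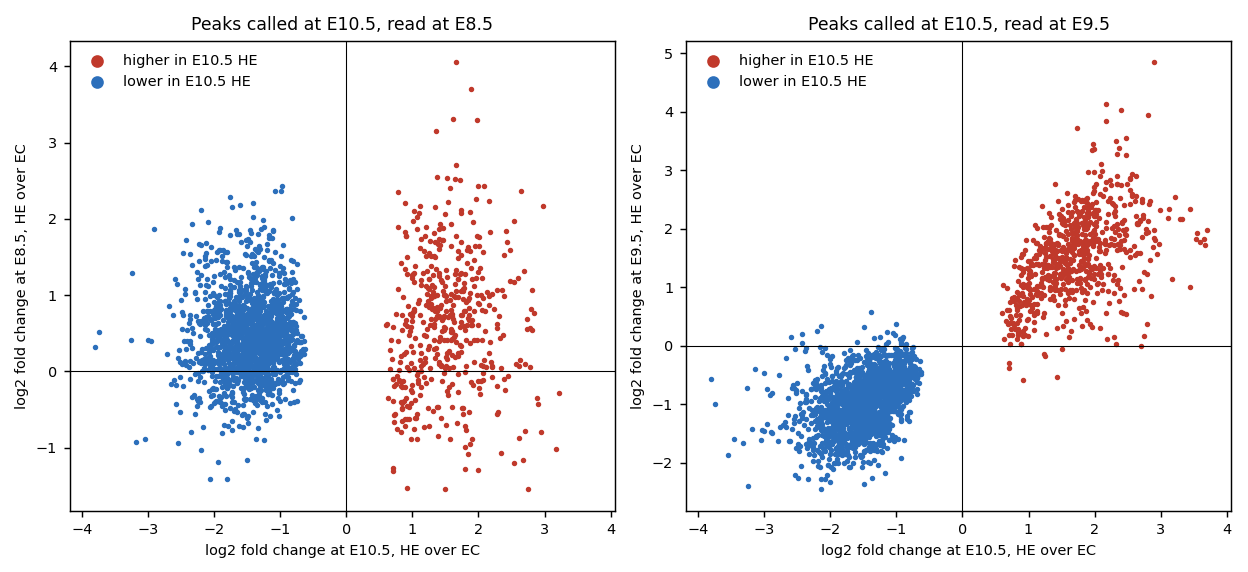
The log2 fold change of HE over EC at E8.5 (left) and at E9.5 (right) on the vertical axes against that at E10.5 (horizontal) for peaks called at E10.5, with 1 point per peak. At E9.5 99.0% of the opened and 98.7% of the closed peaks have the same sign as at E10.5, whereas at E8.5 16.9% of the closed peaks do.

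Whether HE and EC differed by another amount on another day was tested directly, in 1 fit of the 24 HE and EC libraries over 62850 peaks. From E9.5 to E10.5 2 peaks changed (0.00318%), both to a lower difference, and 0 to a higher one (0%), and DESeq2 called 15. An unadjusted p under 0.05 was found at 2885 of the 62850 peaks, a smaller share than the 0.05 that chance alone would give. The 2 peaks called by edgeR were chr2:152002705-152003500, with a change of -2.0 on the log2 scale (SE 0.36, adjusted p = 0.0351), and chr11:110426982-110428254, with -1.57 (SE 0.29, adjusted p = 0.0424). The first had 19.3 ± 14.7 CPM in HE and 48.5 ± 19.9 CPM in EC at E10.5, and 33.8 ± 4.14 CPM in HE and 22.1 ± 5.42 CPM in EC at E9.5 (SD, n = 4 each). Both calls were lost without the block and without replicate 1, the first also without replicate 4 and the second also without replicate 2 and after thinning to equal total counts in peaks. From E8.5 to E10.5 5549 peaks changed (8.83%), 1028 to a higher difference (1.64%) and 4521 to a lower one (7.19%). With cyclic loess offsets the split was 1779 and 3825, and without the block 3158 peaks were called.

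The 5 peaks with the smallest p toward a lower difference from E8.5 to E10.5 include both turning peaks above, at -3.47 (SE 0.30) for chr11:110426982-110428254 and -3.53 (SE 0.33) for chr5:149976189-149977107. A further one, chr16:87715887-87717359, had 42.7 ± 22.3 CPM in HE and 115 ± 32.2 CPM in EC at E10.5, and 42.9 ± 8.75 CPM in HE and 13.0 ± 4.08 CPM in EC at E8.5 (SD, n = 4 each). There HE was at about 1 level on both days, and the levels of EC differed. In the other direction chr4:95633163-95634529 had 98.3 ± 38.0 CPM in HE and 51.0 ± 20.1 CPM in EC at E10.5, and 36.5 ± 4.75 CPM in HE and 65.7 ± 1.63 CPM in EC at E8.5 (SD, n = 4 each), a change of 1.81 (SE 0.26, adjusted p = 8.7e-07).

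Levels at the E10.5 lists were then read in every group, as medians over peaks of the group's mean CPM. Opened peaks stood at 8.97 in HE and 5.01 in EC at E8.5, at 15.4 in HE, 4.87 in EC and 11.7 in pro-HSC/HPC at E9.5, and at 18.8 in HE, 5.97 in EC, 13.8 in pre-HSC I and 6.01 in pre-HSC II at E10.5. In the libraries that did not call the peaks, HE was thus higher at E9.5 than at E8.5, and EC was at 5.01 and 4.87. Pre-HSC II was close to E10.5 EC. A count of 3 stood for 2.42 to 6.57 CPM in a pre-HSC II library, so its levels at both lists rested on few counts. Closed peaks stood at 25.6 in HE and 18.1 in EC at E8.5, at 19.5 in HE, 39.1 in EC and 10.6 in pro-HSC/HPC at E9.5, and at 11.9 in HE, 31.9 in EC and 6.16 in pre-HSC II at E10.5. The 3 pre-HSC I samples had library medians of 8.98 to 13.2 CPM there. In HE this order runs down by day, and EC was higher at E9.5 and E10.5 than at E8.5. The E10.5 HE and EC levels called the peaks, so their place beside the earlier days follows in part from that choice. Pre-HSC I, pre-HSC II and pro-HSC/HPC are given as levels with no test. Over all peaks tested at E10.5 the group medians lay between 7.29 and 9.34.

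**Figure D5:**
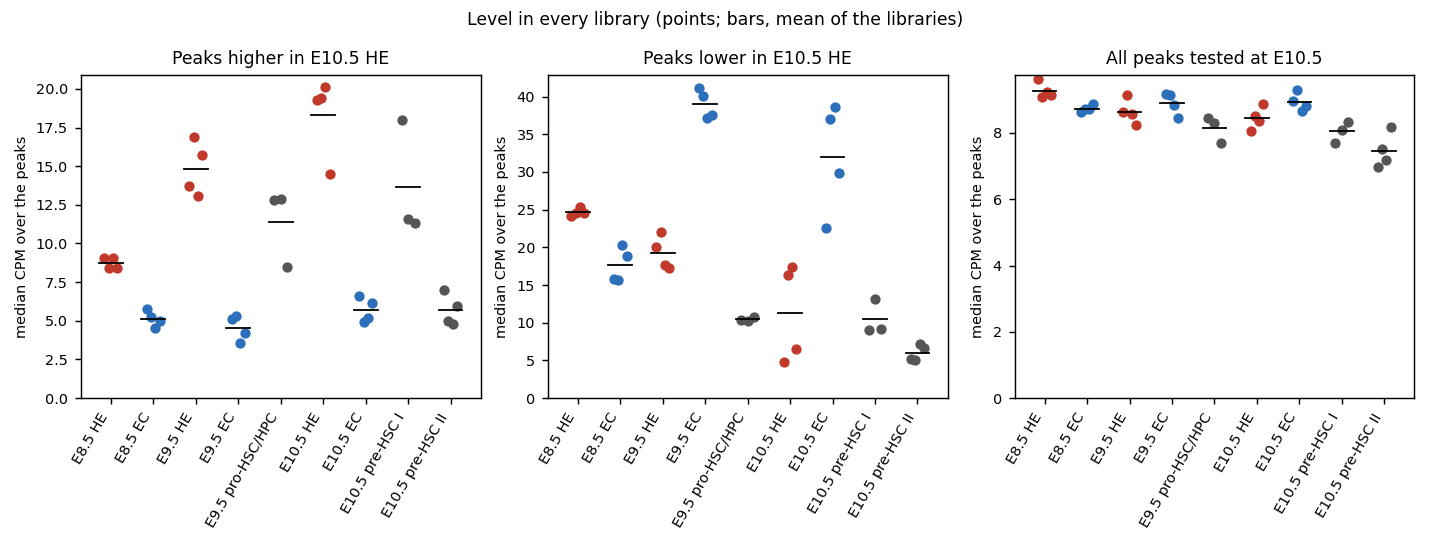
Median CPM over the peaks (vertical, linear from 0) in each library (points) of the 9 groups, with the mean of the libraries as a bar, for opened peaks, closed peaks and all peaks tested at E10.5. HE points at opened peaks lie above EC points on all 3 days, and at closed peaks HE lies above EC at E8.5 (24.1 to 25.3 against 15.7 to 20.3 CPM) and below it at E9.5 and E10.5.

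Named peaks differed in whether the pre-HSC groups kept the E10.5 HE level. The opened peak chr11:24126489-24127811 had 88.5 ± 22.2 CPM in the pre-HSC I pools (SD, n = 3) but 33.7 ± 12.6 CPM in the pre-HSC II pools (SD, n = 4). Its mean was 115 CPM in E10.5 HE and 35.6 CPM in E10.5 EC. Peak chr15:25839597-25840426 stayed high, with 34.1 ± 15.5 CPM in the pre-HSC I pools (SD, n = 3) and 24.7 ± 3.55 CPM in the pre-HSC II pools (SD, n = 4), beside 29.1 in HE and 4.67 in EC, and was at 0.183 CPM in E8.5 EC. The closed peak chr5:149976189-149977107 was at 11.2 ± 5.81 CPM in the pre-HSC I pools (SD, n = 3) and 2.24 ± 1.55 CPM in the pre-HSC II pools (SD, n = 4). Unlike it, chr5:151859229-151860250 had 40.3 ± 17.7 CPM in the pre-HSC II pools (SD, n = 4), beside 16.6 in HE and 58.0 in EC. These differences were not tested, and pre-HSC II libraries were shallow, with 456770 to 1241216 counts. A count of 3 stood for 2.42 to 6.57 CPM in them, above the mean of 2.24 CPM at chr5:149976189-149977107.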

How the data were processed

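ATAC-seq was deposited as 1 table of raw read counts per peak, not normalized by the authors, for 76018 peaks and 35 libraries. Per the submitters' processing notes the build was mm9 and the tools were MACS2 2.0.1, DiffBind 1.14.6, Bowtie 1.0.0, Trim Galore 0.3.1, bedtools 2.17.0, deepTools and SAMtools, with no role or order given. The filtering, shifting and counting of reads are not described in the sources used here, and no table of the authors' own comparisons was used. PCR reads without molecular identifiers are not independent molecules, so counting limits cover counting error only.

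Groups and replicate numbers came from the sample titles. The E9.5 samples carry a tissue label that names E8.5, and their day was taken from the title. Counts of pre-HSC I replicates 2 and 3 differed by less than sampling noise (chi-square per degree of freedom 0.461, where pairs within E10.5 HE or EC had 3.82 to 7.92) and were counted as 1 sample by their mean. The 8 E10.5 HE and EC libraries were filtered with filterByExpr (29350 peaks removed), scaled by TMM and fitted in edgeR 4.0.16 with the quasi-likelihood functions glmQLFit and glmQLFTest (two-sided, common dispersion 0.0884, 3 residual degrees of freedom), adjusted over all tested peaks. Replicate number entered as a block, which was set as part of the comparison. As a check on pairing, HE and EC libraries of the same number correlated in their deviations from the group means (0.329, 0.233, 0.396 and 0.121 for numbers 1 to 4). Libraries of unlike numbers had -0.363 to 0.17, so some of these exceeded the pair of number 4, although each library correlated best with its own number. This pairing is read from the data and is not stated in the labels. E9.5 and E8.5 were fitted in the same way, each with its own 8 libraries, and kept the block although same-number correlations were weak there. The fit over all 3 days had day by replicate number as a block. Log2 CPM per library used a prior count of 2. Levels in all groups used 1 TMM scaling of 34 samples, so they differ slightly from those of the 8 libraries.

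The peaks named were, in each direction, the 12 called peaks with the smallest adjusted p, a log2 fold change of size 1 or more and the same sign in all 4 replicate numbers, the first 4 with all values. For changes between days they were the 5 with the smallest p in each direction. The comparison, lists and rules were chosen with earlier results of these data known. Alternatives were RLE size factors, total counts, cyclic loess offsets (limma 3.58.1), DESeq2 1.42.0, no count filter, no replicate block, all groups in 1 fit, each replicate number left out, replicates 2 and 3 or 1 and 4 alone, thinning each library to 1101787 counts (1004036 in the fits of 24 libraries), and halving all counts, since even counts were in excess. Chosen after seeing the data were the fits at E9.5 and E8.5 without a block, with other scalings, and without E9.5 replicates 3 and 4 or E8.5 replicates 1 and 2. Other software was R 4.3.3, Python 3.11.15, numpy 2.4.6, pandas 2.3.3 and matplotlib 3.10.9. Coordinates were not moved to another build. Gene names, marker genes, GC content, motifs and sequences of peaks are not analysed here: the reference tables at hand are of build GRCm38.p6, whose highest gene end on chromosome 1 is 195291439, where the deposited table has a peak end at 197108561.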

Additional observations from a re-analysis of the deposited data

Results flagged for a closer look

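At the opened peak chr1:56276418-56276984, E10.5 HE replicate 1 was at 47.5 CPM, far above the other 3 HE libraries at 27.1 to 29.7 CPM by the gap test for 4 samples. Chance marks about 1 in 20 groups in this way.

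The HE against EC difference changed between E9.5 and E10.5 at 2 peaks, by -2.0 on the log2 scale at chr2:152002705-152003500 and by -1.57 at chr11:110426982-110428254. Between E8.5 and E10.5 it changed at 5549 peaks. Among the 5 with the smallest p toward a higher difference, the change was 1.90 at chr5:60433955-60434314, 1.95 at chr11:90399883-90400453, 2.37 at chr15:102828384-102830701, 1.81 at chr4:95633163-95634529 and 3.34 at chr18:65279465-65279634. Among the 5 toward a lower difference, it was -3.47 at chr11:110426982-110428254, -3.20 at chr16:87715887-87717359, -3.45 at chr11:110412569-110413854, -3.53 at chr5:149976189-149977107 and -2.81 at chr7:105720479-105722469. All of these passed an adjusted p of 0.05 in edgeR's test of the difference itself. Tissue labels also differ between these days, and the part of tissue was not tested.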

How the results depend on the processing

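No count, share or named peak changed direction under the alternatives run, but the balance of calls did: 70.4% were closed, against 36.5% with no replicate block and 56.9% to 96.8% in the other settings. The count of called peaks (2467, with 729 opened and 1738 closed, and 333 loci of 2 or more peaks) was 137 (87 and 50, 2 loci) with no replicate block, and 1533 (481 and 1052, 146 loci) with all groups in 1 fit and no replicate block. Leaving out each replicate in turn gave 819 to 2655 calls, 125 to 1060 opened, 694 to 1595 closed and 79 to 344 loci, the lowest without replicate 2. Replicates 2 and 3 alone gave 4935 (2129 and 2806, 729 loci), replicates 1 and 4 alone 188 (6 and 182, 10 loci), halved counts 3796 (2743 closed, 600 loci), and no count filter 2664 closed and 550 loci. RLE size factors, total counts, cyclic loess offsets, DESeq2 and thinning gave 1971 to 2749 calls. With replicates 1 and 4 alone, 33.3% of the 6 opened and 33.5% of the 182 closed peaks were called higher at E8.5. For the 1738 closed peaks of the main fit that share was 9.49% without E8.5 replicates 1 and 2. It was 2.38% of all tested peaks in that fit (19.9% and 5.91% with all 4). Peaks whose difference changed from E9.5 to E10.5 numbered 2, against 5 with loess offsets, 15 with DESeq2, 8 with no count filter, 1 after thinning, 0 with no replicate block, 0 with all groups in 1 fit, and 0 to 4 with 1 replicate left out. From E8.5 to E10.5 they numbered 5549, against 3158 with no replicate block, 2181 with all groups in 1 fit and 3388 without E8.5 replicates 1 and 2. Like number 4 of E10.5 (0.121), libraries of the same number correlated weakly at E9.5 (0.0434 to 0.163) and at E8.5 (0.0536 to 0.11). Without the block at E9.5 and E8.5, 6303 and 2973 peaks were called, against 7253 and 3597. The shares of the E10.5 lists called the same way at E9.5 were then 70.8% of opened and 73.4% of closed peaks, with 15.6% of opened and 15.7% of closed called higher at E8.5. The cause of these shifts was not tested. Of the 24 named peaks, 5 kept their call in every setting run. Depth limits low peaks most, since 3 counts are 2.72 CPM in the shallowest E10.5 HE library. A correction for GC content was not run.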
